A study of Mus musculus with 16 samples.

Results

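Heat shock proteins are the molecular chaperones that bind unfolded or newly made proteins. The genes described here were 9 members of the family, namely Hspa1b, Hspa8, Hsph1, Hspb1, Dnajb1, Hspd1, Hspe1, Hsp90aa1 and Hsp90ab1. Members were found as the probe sets whose only annotated gene carries one of these symbols. Of the 9 members, 8 had a probe set, and these 8 genes held 10 probe sets out of 8252 genes and 12488 probe sets in the table. Hsp90ab1, the constitutive cytosolic HSP90, had no such probe set and was not analysed here.

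Total RNA of 16 mouse samples was hybridised to Affymetrix U74Av2 arrays, 1 array per sample, in a study of heterozygous mutations in embryonic stem (ES) cells and liver. The samples formed 6 groups. In ES cells, 3 arrays of a Cdk4 +/- line were set against 3 of E14, the +/+ line given as its control, and both lines were maintained without feeder cells. A further 3 arrays of an Abca1 +/- line were set against 3 of ESVJ, its +/+ parental line, and these lines were kept on irradiated embryonic fibroblast feeders, which were removed about 2 days before RNA isolation. RNA came from the RNeasy kit alone for E14 and Cdk4 +/- cells, and from Trizol followed by RNeasy for Abca1 +/- and ESVJ cells. In liver, 2 arrays from mice labelled Abca1 +/- were set against 2 from +/+ mice, with 129/SvJ and C57BL6/J mixed in the background of all 4 animals; their age was not given in the sources used here. Each mutant ES genotype was a single line, so an effect of the mutation cannot be told from a difference between lines. The labels do not say whether the arrays of an ES group came from separate cultures, so every p-value measures the spread between these samples, which may be technical.

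Values are MAS5 signals after each array was brought to a trimmed mean of 500, which gave medians of 126 to 170 per array. Changes are differences of log2(signal + 32), so folds and percentages are on that scale and understate the change of dim probe sets. A probe set passed when its p from limma, with the Benjamini-Hochberg adjustment across every probe set tested, was under 0.05. Probe sets with a mean rescaled signal under 100 over the arrays of a fit were not tested. The labels were checked first. A Cdk4 probe set (160538_at) read 3448, 3854 and 3731 in Cdk4 +/- cells, against 5822, 5498 and 5827 in E14. An Abca1 probe set (94354_at) averaged 110 ± 14.8 in Abca1 +/- ES cells and 141 ± 38.1 in ESVJ (SD, n = 3 each). In liver this probe set went against the label, with signals of 699 and 555 in the 2 livers labelled Abca1 +/- and 327 and 301 in the 2 +/+ livers. The other Abca1 probe set (97198_at) read 41.5 and 161 in livers labelled Abca1 +/-, against 295 and 140 in +/+ livers, so its groups overlapped and the probe sets disagreed. The ES markers summed to between 584 and 840 on liver arrays and to between 34141 and 64601 on ES arrays, and the 12 hepatocyte markers on the array were all above 100 in each liver. The first of the livers labelled Abca1 +/- had a 3'/5' ratio of 4.10 at the Gapdh control and 8.23 at the actin control, while the other 15 arrays reached at most 1.19 and 2.14.

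HSP70 proteins (Hspa1b, inducible by stress, and Hspa8, made constitutively) hold and release client proteins in a cycle driven by ATP. Dnajb1, an HSP40, delivers clients and speeds up ATP hydrolysis, and Hsph1, an HSP110, exchanges the nucleotide so that the client is released. HSP90 (Hsp90aa1) takes over clients such as kinases and steroid receptors, and Hspb1, a small heat shock protein, keeps unfolded proteins from aggregating. Hspd1 (HSP60) and its lid Hspe1 (HSP10) form the folding chamber of the mitochondrial matrix. Under stress, heat shock factor 1 activates many of these genes through heat shock elements, arrays of alternating GAA and TTC units, and ES cells are known for high levels of several chaperones.

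The promoters are shown because heat shock elements act in many of these genes and because Hspd1 and Hspe1 share one region. RefSeq promoter windows (GRCm38.p6, 250 bases before to 50 after an annotated start) were matched by symbol for 6 of the 9 members, in 9 windows. Hspa8, Hsp90aa1 and Hsp90ab1 had none in the table. The sequences below are the 120 bases before the start of the first window of each gene, read 5′ to 3′ on the strand of the gene. The Hsph1 gene is annotated at chr5:149616843-149636498 on the minus strand, so its printed stretches lie inside the annotated gene. For Hsph1 a stretch of 29 bases after the start follows. Capitals mark matches to the 2-unit heat shock element, GAANNTTC or TTCNNGAA. Positions count from the start site, which is 0.
Hspa1b (chr17:34959239-34959358, minus strand): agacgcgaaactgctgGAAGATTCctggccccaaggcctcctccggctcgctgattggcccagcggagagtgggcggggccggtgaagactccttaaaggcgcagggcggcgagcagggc
Hspe1 (chr1:55088028-55088147, plus strand): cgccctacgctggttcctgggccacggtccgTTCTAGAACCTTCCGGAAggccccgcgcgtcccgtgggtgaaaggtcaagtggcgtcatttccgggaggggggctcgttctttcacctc
Hsph1 (chr5:149636337-149636456, minus strand): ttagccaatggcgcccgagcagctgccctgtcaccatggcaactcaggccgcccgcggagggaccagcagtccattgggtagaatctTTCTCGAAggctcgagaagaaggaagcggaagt
Hsph1 after its start (chr5:149636287-149636315, minus strand): gtaaaatgctgcagaTTCTGGAAAGTTCt
Hspb1 (chr5:135887799-135887918, plus strand): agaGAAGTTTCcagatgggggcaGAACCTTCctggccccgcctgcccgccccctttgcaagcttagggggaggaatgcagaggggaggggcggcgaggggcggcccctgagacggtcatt
Dnajb1 (chr8:83608055-83608174, plus strand): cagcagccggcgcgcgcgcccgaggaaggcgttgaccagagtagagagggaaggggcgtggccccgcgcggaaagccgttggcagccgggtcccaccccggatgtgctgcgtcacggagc

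A 2-unit match, sought on both strands, was present in a window of 5 of the 6 members, and in 15.1% of all 32851 windows (17% of 27025 genes). The 3-unit motif, the same pattern extended by 1 more alternating unit at the same spacing, was present in 3 members (Hspd1, Hspe1 and Hsph1), and in 0.603% of all windows (0.662% of genes). Each 3-unit match contains matches of both 2-unit motifs, so the counts overlap. Hspa1b had 1 match, from −104 to −97. Hspe1 had an unbroken run of 18 bases from −89 to −72 that holds 3 overlapping 2-unit matches. Hsph1 had a 2-unit match from −33 to −26 and a 3-unit match at 36 to 48, after the start, and Hspb1 had 2-unit matches from −117 to −110 and from −97 to −90. Neither window of Dnajb1 held a match. TATAAA was found in 0 of the member windows and in 13.6% of all windows. These matches describe letters, not binding.

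Hspd1 and Hspe1 lie head to head on chromosome 1. Hspe1 is annotated on the plus strand at chr1:55088148-55091317 and Hspd1 on the minus strand at chr1:55077833-55088243, so the genes overlap by 96 bases. Hspd1 has a second annotated start 216 bases from that of Hspe1, and the window of this start shares 285 bases with the Hspe1 window, including the 18-base run. The window of the first Hspd1 start held no match. Hspa1b, at chr17:34956429-34959238, has a close paralogue, Hspa1a, 10120 bases away. Their windows were identical at 296 of 300 positions. Whether the probe sets of Hspa1b and Hspa1a tell their transcripts apart was not tested.

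**Figure D1:**
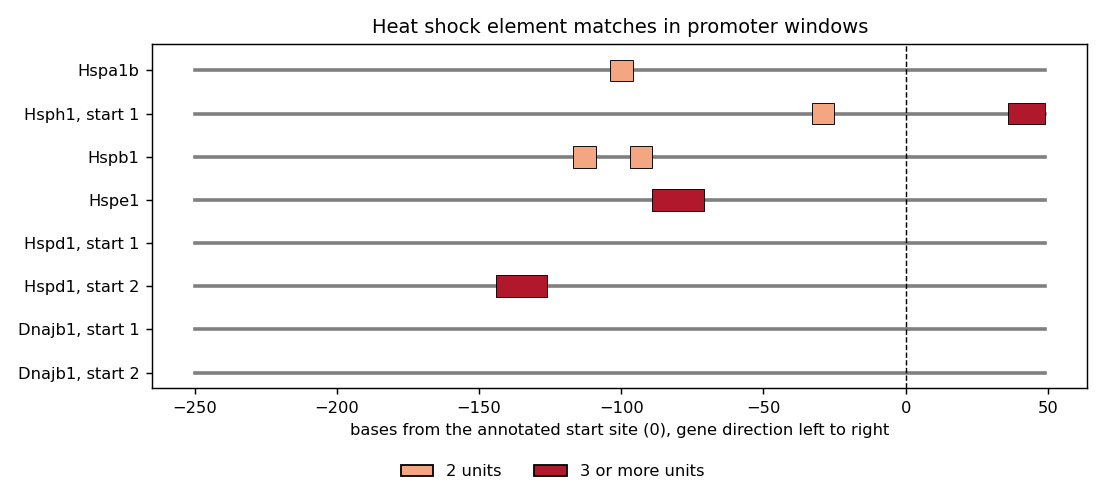
Heat shock element matches in the promoter windows of 6 heat shock protein genes (rows; both starts of Hspd1 and Dnajb1, the first of Hsph1), by distance in bases from the annotated start at 0 (dashed line). Pale boxes are 2-unit matches and dark boxes are runs with a 3-unit match. The 18-base run appears in the windows of Hspe1 and of the second Hspd1 start, while both Dnajb1 windows are empty.

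Of the 10 member probe sets, 8 passed the signal minimum in the ES and liver fits, and they stood for 7 of the 8 genes. Hspb1 (92853_at) was dim on every array, between 8.20 and 53.7, and a second Hsp90aa1 probe set (161869_i_at) read between 4.30 and 44.5. Neither was tested, and without detection calls no order was read from these signals. The suffixes i and r mark probe sets chosen under relaxed design rules. Signals of different probe sets depend on their probes, so levels below are compared between groups and not between genes.

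**Figure D2:**
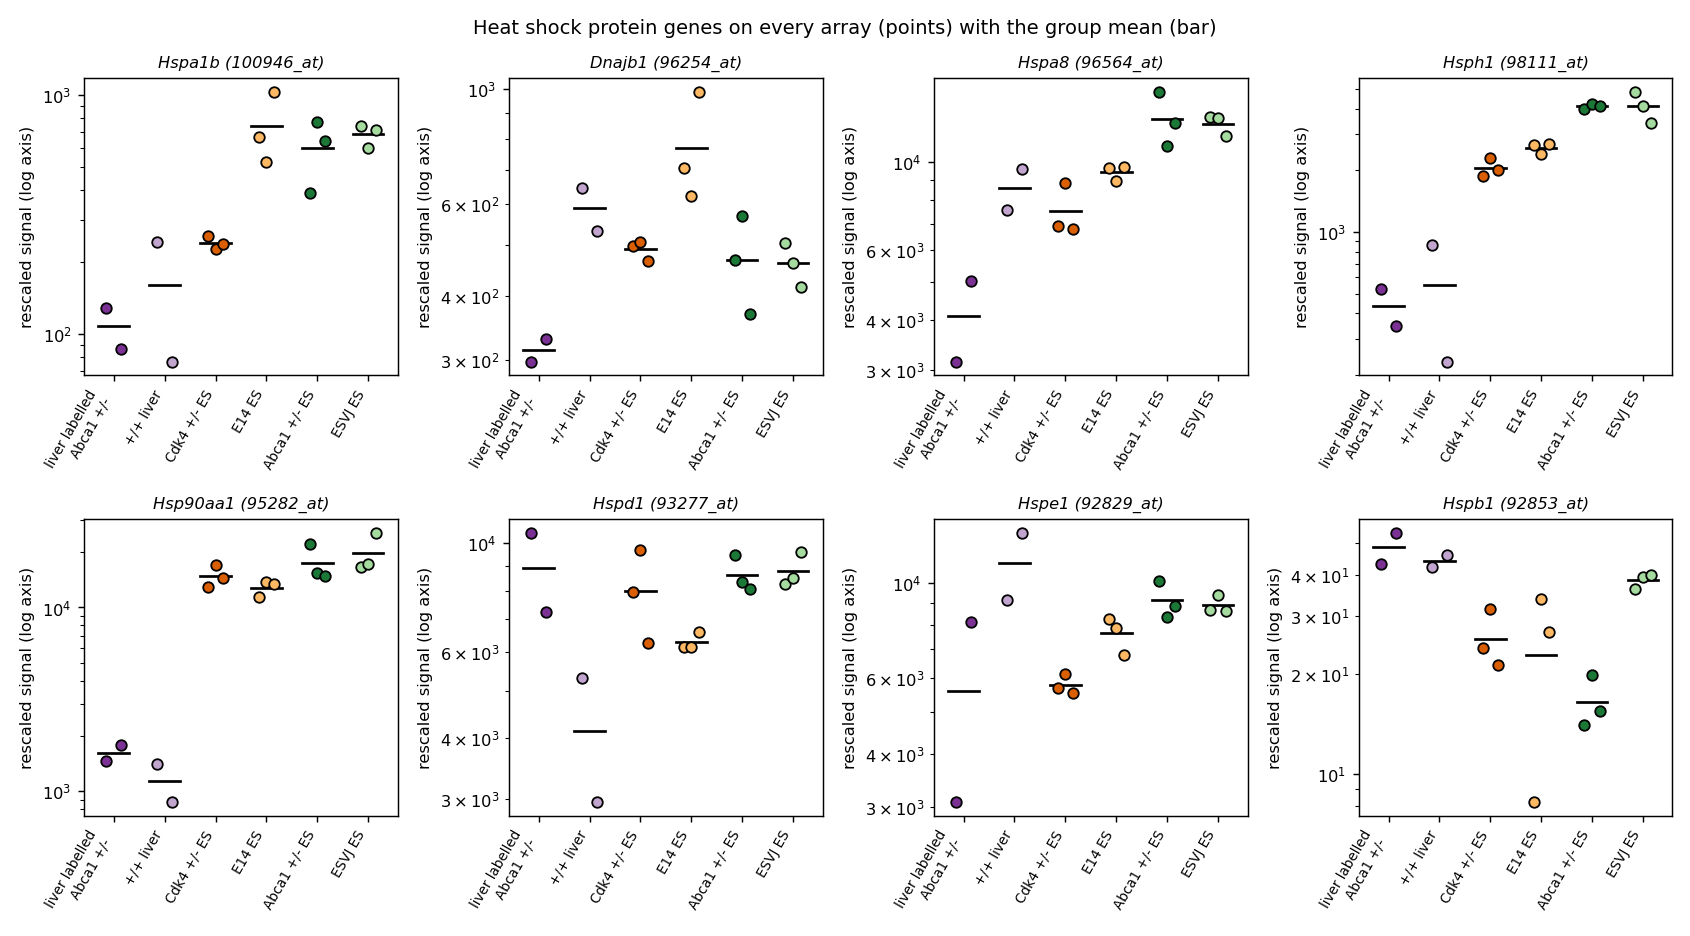
Rescaled signal (log axis) of the 8 heat shock protein genes with a probe set, by its brightest probe set, on all 16 arrays. Points are arrays and bars are group means, with n = 2 for each liver group and n = 3 for each ES group. The 3 Cdk4 +/- points of Hspa1b, at 227 to 258, all lie below the E14 points, at 525 to 1033, and Hsp90aa1 and Hsph1 are low in all 4 livers.

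Hspa1b was the only member that passed in Cdk4 +/- ES cells, and the others were not thereby shown to be unchanged. Its probe set (100946_at) read 258, 227 and 238 in the 3 Cdk4 +/- arrays, against 671, 525 and 1033 in the 3 E14 arrays. The Cdk4 +/- arrays lay close together and all below E14, and the third E14 array was the highest of the series. Hspa1b fell by 1.46 on the log2 scale (SE 0.24, limma adjusted p = 0.00436), to 36.5% of the E14 level (95% interval 25.7% to 51.7%). It passed in all 21 alternatives, each ES array left out in turn included, with limma adjusted p between 0.00176 and 0.0493. Of the 8 member probe sets tested, this was the 1 that passed, against 4.91% of all 7349 probe sets in either direction and 2.33% lower. Hspa1a (93875_at), the paralogue, read 227, 196 and 218 in Cdk4 +/- cells, against 307, 198 and 667 in E14. The groups overlapped at the second E14 array, and the log2 change of -0.63 (SE 0.29) did not pass, with a limma adjusted p of 0.224.

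The partners of HSP70 read lower in Cdk4 +/- cells without passing. Dnajb1 (96254_at) read 499, 508 and 466 in Cdk4 +/- cells, against 703, 623 and 988 in E14. The groups did not overlap, and the log2 change was -0.59 (SE 0.18, limma adjusted p = 0.0700). The third E14 array was the highest for Dnajb1 as it was for Hspa1b and Hspa1a. Hsph1 (98111_at) read 1882, 2299 and 1999 in Cdk4 +/- cells, against 2674, 2411 and 2683 in E14, a log2 change of -0.33 (SE 0.13, limma adjusted p = 0.164). Hspa8 (96564_at) read 6898, 8846 and 6784 in Cdk4 +/- cells, against 9675, 8933 and 9718 in E14, a log2 change of -0.34 (SE 0.14, limma adjusted p = 0.173). In both genes the second Cdk4 +/- array came nearest to E14.

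In the mitochondrial pair the directions differed. Hspe1 (92829_at) read 5693, 6123 and 5543 in Cdk4 +/- cells, against 8254, 7861 and 6790 in E14. These groups did not overlap, and the log2 change of -0.39 (SE 0.12) had a limma adjusted p of 0.0651. It passed under quantile normalization (limma adjusted p = 0.0237) and without the third E14 array (limma adjusted p = 0.0373). Hspd1 (93277_at) read 7955, 9705 and 6258 in Cdk4 +/- cells, against 6145, 6127 and 6603 in E14, a log2 change of 0.32 (SE 0.14, limma adjusted p = 0.220). The third Cdk4 +/- array fell among the E14 arrays. Its other probe set (161140_r_at) differed by 0.08, and Hsp90aa1 (95282_at) by 0.20 (SE 0.19, limma adjusted p = 0.596), with signals of 12937, 16945 and 14390 in Cdk4 +/- cells, against 11395, 13724 and 13373 in E14. Counted by overlap, 5 of the 8 probe sets lay below E14 on every Cdk4 +/- array and 0 lay above, while 11.9% of all probe sets lay below and 24.9% in either direction. The 3 E14 arrays are shared by all 8 probe sets, so these are not independent. Members were also chosen with earlier results of these data known. Setting their shares and medians beside those of all probe sets is therefore no test of the family, here or below. The median member change was -0.33, against 0.02 over all probe sets tested.

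Around the members, few genes of the pathway passed in Cdk4 +/- cells, as did few of all probe sets (4.91%). Of the 4 regulators tested, Hspbp1, which binds HSP70 and promotes nucleotide exchange, fell by 0.64 on the log2 scale (SE 0.16, limma adjusted p = 0.0399). The others did not pass, and the median of this list was 0.23. No heat shock factor gene was among those tested. Hsbp1 read higher by 0.71 (limma adjusted p = 0.0524) and Chordc1 by 0.47 (limma adjusted p = 0.0613), while Bag3 differed by -0.02. None of 7 other HSP70 and HSP110 genes, 17 other DNAJ genes, 5 other small heat shock proteins, 12 subunits of the TRiC chaperonin and prefoldin, or 19 co-chaperones passed in this limma fit. At an unadjusted p under 0.05, 20.8% of all probe sets were called. The co-chaperones had a median change of -0.21, against 0.02 over all probe sets, with Sgta at -0.36 and Fkbp8 at -0.39. In the mitochondrial list 1 of 8 passed: Clpp, the proteolytic subunit of the matrix protease ClpXP, fell by 0.54 (SE 0.15, limma adjusted p = 0.0463). In the endoplasmic reticulum list 1 of 16 passed, in the other direction: Herpud1, a part of the machinery that degrades misfolded proteins there, rose by 1.36 (SE 0.19, limma adjusted p = 0.00212). Some genes stand in 2 lists, as Hspa9 does.

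Immediate early genes, which answer to handling and stress, were read beside these values. Their summed signal lay between 20942 and 21789 in Cdk4 +/- cells and between 16858 and 19432 in E14, and 1 of 13 passed, Atf3, with a rise of 1.20 (limma adjusted p = 0.0104). The summed ES markers lay between 40876 and 47025 in Cdk4 +/- cells and between 34141 and 40180 in E14. Of 11 tested 2 passed, Klf4 and Nanog, both higher, while by sign alone 7 were higher and 4 lower. Markers of primitive endoderm and differentiation summed to between 6920 and 8318 in Cdk4 +/- cells and to between 5356 and 6171 in E14, and 1 of 8 passed, Sparc, with a rise of 0.69 (limma adjusted p = 0.0224). The part of any of these in the fall of Hspa1b was not tested.

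Between Abca1 +/- and ESVJ ES cells no member passed. Hspa1b read 390, 776 and 645 in Abca1 +/- cells, against 742, 603 and 717 in ESVJ. The first Abca1 +/- array was low and the others lay about the ESVJ range, and the log2 change was -0.22 (95% interval -0.73 to 0.28). Hsph1 read 4018, 4242 and 4126 in Abca1 +/- cells, against 4845, 4136 and 3418 in ESVJ, and Dnajb1 read 469, 570 and 368 in Abca1 +/- cells, against 506, 461 and 416 in ESVJ. The changes of all 8 probe sets lay between -0.22 and 0.03, each with a limma adjusted p of 0.9997, and the background was 0.0272% called (2 probe sets of 7349). At an unadjusted p under 0.05, limma called 3.28% of all probe sets. The intervals bound what could have been missed: that of Hspe1 ran from -0.21 to 0.28, and that of Hsp90aa1 from -0.57 to 0.22. None of the genes in the 9 lists of chaperones and their regulators passed either.

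The difference between the changes of both mutant lines was tested in the same fit. Of the 8 member probe sets 0 passed, against 0.626% of all. For Hspa1b the Cdk4 change lay 1.23 below the Abca1 change on the log2 scale (SE 0.33, limma adjusted p = 0.107). It passed without the first Abca1 +/- array (difference -1.50, limma adjusted p = 0.0378), the one low in Hspa1b, and in none of the other 19 alternatives. The fall of Hspa1b in Cdk4 +/- cells was therefore not shown to differ from its change in Abca1 +/- cells.

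**Figure D3:**
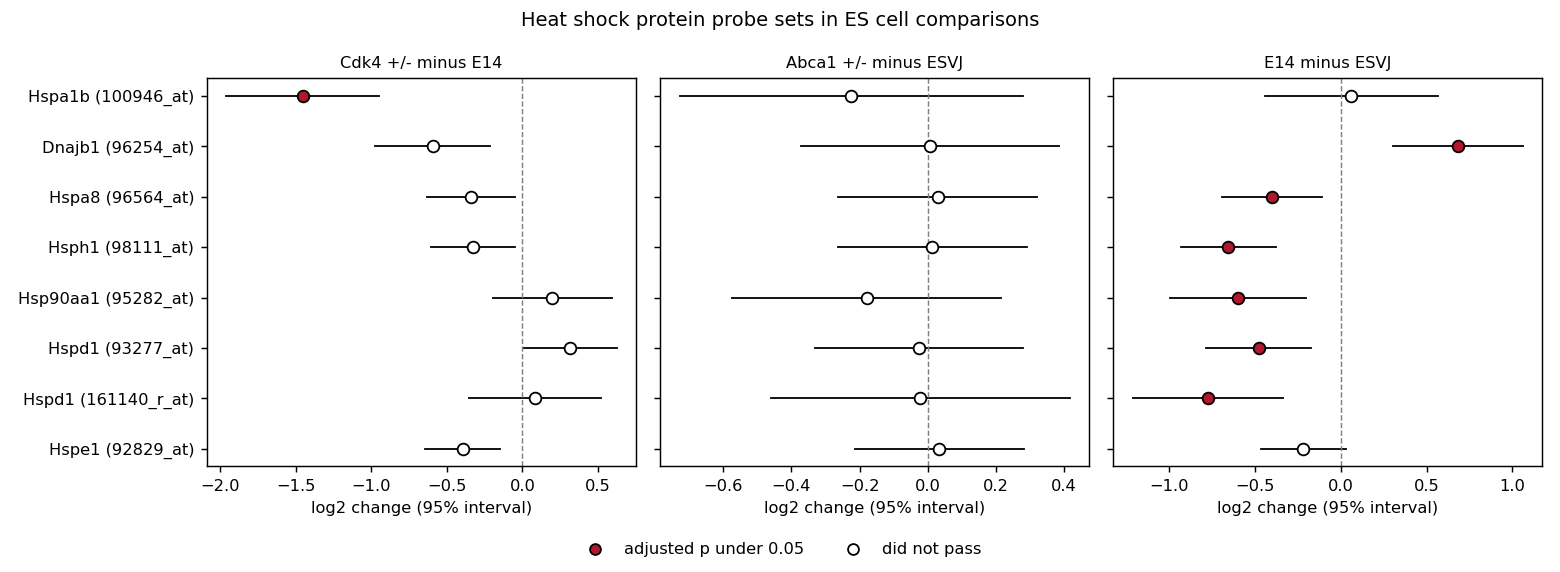
Log2 change of the 8 heat shock protein probe sets tested in 3 ES comparisons, with 95% intervals as bars. Filled points passed at an adjusted p under 0.05. Hspa1b alone is filled for Cdk4 +/- minus E14, no point is filled for Abca1 +/- minus ESVJ, and 6 are filled for E14 minus ESVJ. The 3 panels have different scales.

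The 2 +/+ lines, E14 and ESVJ, differed in most members. Line, feeder culture and RNA isolation differ together here and cannot be told apart. Of the 8 probe sets 6 passed, 1 higher and 5 lower in E14, while 42.6% of all probe sets passed, 19.8% higher and 22.8% lower. Dnajb1, at 703, 623 and 988 in E14 and 506, 461 and 416 in ESVJ, rose by 0.68 on the log2 scale (SE 0.18, limma adjusted p = 0.00671). The groups did not overlap, and Dnajb1 passed in all 21 alternatives. Hsph1, at 2674, 2411 and 2683 in E14 and 4845, 4136 and 3418 in ESVJ, fell by 0.66 (SE 0.13, limma adjusted p = 9.84e-04). Its groups did not overlap either (52% of all probe sets did not), and it missed in 1 alternative, the fit of all 16 arrays (limma adjusted p = 0.105).

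Hspd1 fell in E14 by both its probe sets, by 0.48 (SE 0.14, limma adjusted p = 0.0146) and by 0.77 (SE 0.21, limma adjusted p = 0.00745). The brighter one read 6145, 6127 and 6603 in E14, against 8267, 8502 and 9615 in ESVJ. The 3 E14 arrays were alike and below all of ESVJ, and the call was lost without the third ESVJ array (limma adjusted p = 0.0588) and in the fit of all 16 arrays (limma adjusted p = 0.0925). Hsp90aa1 fell by 0.60 (SE 0.19, limma adjusted p = 0.0171), with 11395, 13724 and 13373 in E14 and 16687, 17155 and 25551 in ESVJ. Under quantile normalization its change was -0.14 (limma adjusted p = 0.297), and it also missed without the third ESVJ array (limma adjusted p = 0.0921) or the first E14 array (limma adjusted p = 0.0714). The third ESVJ array had the brightest top signal of the ES arrays, at 35934. Hspa8 fell by 0.40 (SE 0.14, limma adjusted p = 0.0283), with 9675, 8933 and 9718 in E14 and 13013, 12882 and 11596 in ESVJ, and missed in 8 of 21 alternatives.

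Hspa1b did not pass between the +/+ lines (log2 change 0.06, SE 0.24, limma adjusted p = 0.859), nor did Hspe1 (-0.22, SE 0.12, limma adjusted p = 0.141). Hspa1a, at -0.54, did not pass either (limma adjusted p = 0.144). E14 arrays enter both this comparison and that of Cdk4 +/- cells, where they are the control, so the changes of a gene in both are tied. For Dnajb1, the 3 Cdk4 +/- signals of 466 to 508 lay within or next to the ESVJ range of 416 to 506, with E14 above both.

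Other chaperone groups also differed between the +/+ lines. Of 5 other small heat shock proteins 3 were higher in E14: Hspb8 by 1.99, Cryab by 1.49 and Hspb2 by 1.34 on the log2 scale (limma adjusted p = 1.55e-07, 3.77e-04 and 6.94e-06). Of 12 TRiC and prefoldin genes 7 were lower and 0 higher, led by Cct3 at -1.08, against the 22.8% of all probe sets that were lower. Of 17 other DNAJ genes 6 were lower, among them Dnajc7 at -1.36 and Dnaja3 at -0.77. Co-chaperones went both ways, with 7 of 19 higher, such as Stub1 at 0.48 and Cdc37 at 0.56, and 3 lower. Of 16 endoplasmic reticulum chaperones 2 were higher, with Serpinh1, the collagen chaperone, at 2.26, and 8 were lower, with Pdia6 at -1.64. Of 4 regulators Hspbp1 (0.59) and Bag3 (0.48) were higher and Chordc1 (-0.59) was lower. The summed feeder markers overlapped, between 3942 and 4152 in E14 and between 3841 and 4174 in ESVJ, while of the 6 tested Col1a1 was higher (1.22) and Col1a2 (-0.60) and Fbln2 (-0.82) were lower. Markers of primitive endoderm and differentiation summed to between 5356 and 6171 in E14 and to between 4259 and 4696 in ESVJ, with 2 of 8 higher, Col4a1 (1.67) and Sparc (1.24), and 5 lower. The ES markers summed to between 34141 and 40180 in E14 and to between 56626 and 64361 in ESVJ, with 10 of 11 lower, and immediate early genes to between 16858 and 19432 in E14 and between 11853 and 13410 in ESVJ. Their part in the members' differences was not tested.

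In livers labelled Abca1 +/- no member passed against +/+ livers, in a design with 2 arrays a group in which 1 of 7160 probe sets passed (0.014%). At an unadjusted p under 0.05, limma called 18.4% of all probe sets. Hspa8 read 3143 and 5024 in livers labelled Abca1 +/-, against 7584 and 9617 in +/+ livers, a log2 change of -1.10 (SE 0.36, limma adjusted p = 0.178). Dnajb1 read 298 and 330 in livers labelled Abca1 +/-, against 646 and 532 in +/+ livers, a log2 change of -0.84 (limma adjusted p = 0.225). Neither gene's groups overlapped, and 51.7% of all probe sets did not overlap between these groups.

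Hspe1 read 3081 and 8119 in livers labelled Abca1 +/-, against 9122 and 13109 in +/+ livers, a log2 change of -1.12 (limma adjusted p = 0.236). Hspd1 had the opposite sign by its bright probe set, with 10514 and 7253 in livers labelled Abca1 +/-, against 5317 and 2958 in +/+ livers (log2 change 1.13, limma adjusted p = 0.180). Its second probe set disagreed, at 97.1 and 183 in livers labelled Abca1 +/-, against 267 and 199 in +/+ livers (log2 change -0.66, limma adjusted p = 0.427). The first liver labelled Abca1 +/-, the one with raised 3'/5' ratios, had the lowest signal of the 4 livers for Hspa8, Dnajb1, Hspe1 and the second Hspd1 probe set, and the highest for the bright Hspd1 probe set. Without it no member passed: the log2 changes were -0.76 for Hspa8, -0.77 for Dnajb1, -0.43 for Hspe1 and 0.87 for the bright Hspd1 probe set (limma adjusted p = 0.343, 0.267, 0.620 and 0.342), and 9 probe sets passed in all. Without the second liver labelled Abca1 +/-, Hspa8, Hspd1 and Hspe1 passed (limma adjusted p = 0.0148, 0.0278 and 0.00667), as did 1653 probe sets in all, against 1 with both livers. With 1 array left in a group the spread came from the 2 +/+ livers alone, and the lone array was assumed to vary like them. In the fit of all 16 arrays, where 1970 probe sets passed and the spread came mostly from ES arrays, Hspa8, Dnajb1, Hspd1 and Hspe1 passed (limma adjusted p = 0.00253, 0.0143, 0.00459 and 0.0128). The part of RNA quality in these values was not tested.

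Hspa1b and Hsph1 were scattered in liver. Hspa1b read 129 and 86.4 in livers labelled Abca1 +/-, against 244 and 76.5 in +/+ livers, and Hsph1 read 526 and 345 in livers labelled Abca1 +/-, against 863 and 232 in +/+ livers. In each gene the groups overlapped, since the 2 +/+ livers lay farther apart than the groups. Hsp90aa1 read 1466 and 1780 in livers labelled Abca1 +/-, against 1410 and 871 in +/+ livers (log2 change 0.53, limma adjusted p = 0.466). The summed immediate early genes were between 7595 and 13269 in livers labelled Abca1 +/- and between 4046 and 4464 in +/+ livers. Of the 10 tested, 0 passed. The difference of the Abca1 effect between liver and ES cells passed for 0 of 8 member probe sets, against 2.38% of all.

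**Figure D4:**
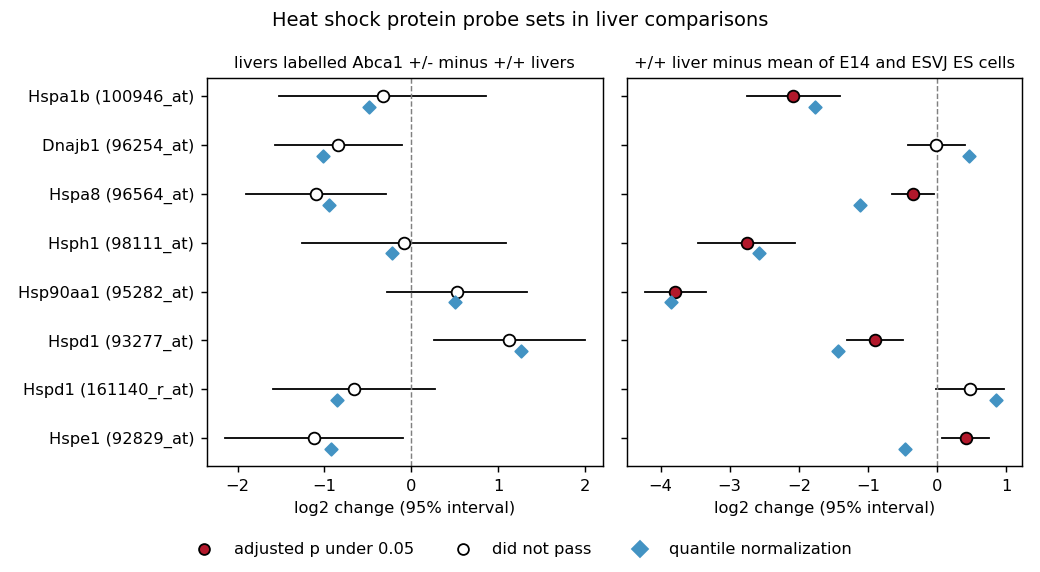
Log2 change of the 8 heat shock protein probe sets tested, for livers labelled Abca1 +/- minus +/+ livers (left) and for +/+ liver minus the mean of E14 and ESVJ ES cells (right). Circles with 95% intervals are filled where the adjusted p was under 0.05, and blue diamonds give the same change after quantile normalization. No circle is filled on the left; on the right Hsp90aa1, Hsph1 and Hspa1b lie farthest below 0, and Hspe1 changes sign after quantile normalization.

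Compared with +/+ ES cells, +/+ liver had far lower signals of Hsp90aa1, Hsph1 and Hspa1b. Hsp90ab1, the constitutive cytosolic HSP90, had no probe set, so cytosolic HSP90 as a whole was not measured. In tissue RNA, fewer cells of a type and less RNA per cell cannot be told apart. Hsp90aa1 was 13.8-fold lower in +/+ liver than in the mean of E14 and ESVJ (log2 change -3.79, limma adjusted p = 1.92e-09). Its liver signals of 1410 and 871 were far below the range of 11395 to 25551 in the 6 +/+ ES arrays. Hsph1 was 6.76-fold lower (log2 change -2.76, limma adjusted p = 4.18e-06), and Hspa1b was 4.23-fold lower (log2 change -2.08, limma adjusted p = 3.95e-05). These 3 genes passed in all 16 alternatives, but the +/+ livers lay far apart in 2 of them. Without the first +/+ liver the log2 change was -3.64 for Hsph1 and -2.75 for Hspa1b, and without the second it was -1.88 for Hsph1 and -1.41 for Hspa1b, each with 1 liver left. Of the 8 probe sets 5 passed lower and 1 higher, while 75.8% of all probe sets passed, 48.9% lower and 26.9% higher, and the median of all probe sets was -0.43.

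Hspd1 (93277_at) fell by 0.90 (SE 0.19, limma adjusted p = 6.77e-04) and passed in all 16 alternatives, but its second probe set gave 0.48 (limma adjusted p = 0.0734). Hspa8 fell by 0.34 (limma adjusted p = 0.0382), with 7584 and 9617 in +/+ liver, less than the median of all probe sets, and missed in 8 of 16 alternatives. Hspe1, at 9122 and 13109 in +/+ liver, rose by 0.41 (limma adjusted p = 0.0297), but its change was -0.46 after quantile normalization, which moved the median of all probe sets to -0.16. Dnajb1 read 646 and 532 in +/+ liver, and its log2 change was -0.01 (limma adjusted p = 0.962), or 0.45 after quantile normalization (limma adjusted p = 0.0452). The direction of Hspe1 and Dnajb1 between tissues therefore depended on the scaling.

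In the other chaperone lists, 11 of 12 TRiC and prefoldin genes were lower in +/+ liver, with Cct8 at -2.48, as were 14 of 19 co-chaperones, with Unc45a at -2.84 and the HSP90 cyclophilin Ppid at -2.71, while 2 co-chaperones were higher. Of 7 other HSP70 and HSP110 genes 4 were lower, among them Hspa4 at -1.76, the mitochondrial Hspa9 at -1.63 and Hspa1a at -1.12. The endoplasmic reticulum list went the other way, with 10 of 16 higher, such as Herpud1 at 4.20 and Ppib at 2.16, and 2 lower, one of them Serpinh1 at -2.12. Of 17 other DNAJ genes 9 were lower, led by Dnajc2 at -3.37 and Dnajc7 at -3.32, and 4 were higher, with Dnajc15 at 2.11. Of 5 other small heat shock proteins Hspb8 was higher by 2.64 and Hspb2 was lower (limma adjusted p = 1.11e-04). In the mitochondrial list of 8, Grpel1 (1.59) and Grpel2 (0.73), which exchange the nucleotide of Hspa9, were higher and 3 were lower, among them the protease Lonp1 at -1.51. Of 4 regulators Hsbp1 (1.72) and Hspbp1 (0.44) were higher, and Bag3 (-1.45) and Chordc1 (-0.82) were lower. Each of these named genes had a limma adjusted p of at most 0.0119.

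**Figure D5:**
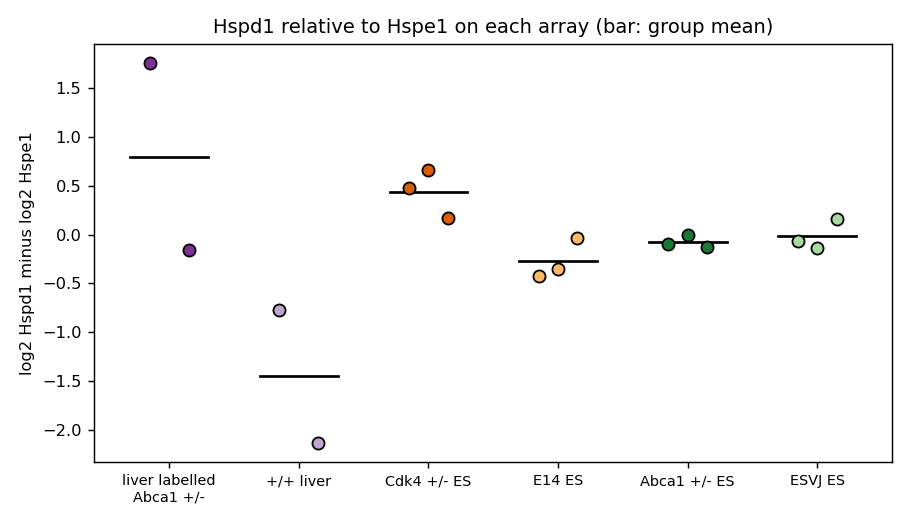
Log2 signal of Hspd1 (93277_at) minus that of Hspe1 (92829_at) on each array (points), with group means (bars). Since the probe sets respond differently, only differences between groups can be read. The 3 Cdk4 +/- arrays, at 0.17 to 0.66, lie above the 3 E14 arrays, at -0.42 to -0.04, and the livers spread most. The highest liver point is the array with raised 3'/5' ratios, and the second Hspd1 probe set is not shown.

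The neighbours Hspd1 and Hspe1 were compared on each array, a measure chosen after their values were seen. Hspd1 minus Hspe1 on the log2 scale was 0.48, 0.66 and 0.17 in Cdk4 +/- cells, against -0.42, -0.36 and -0.04 in E14. All 3 Cdk4 +/- arrays lay above E14, with a difference of 0.71 and a two-sided exact permutation p of 0.1, the smallest that 3 against 3 arrays allow. Between Abca1 +/- and ESVJ cells the difference was -0.06 (exact permutation p = 0.7) and between E14 and ESVJ it was -0.26 (exact permutation p = 0.3). In liver the value was 1.76 and -0.16 in livers labelled Abca1 +/-, against -0.78 and -2.14 in +/+ livers, a difference of 2.25 (exact permutation p = 0.333, the smallest that 2 against 2 allow). These p-values are unadjusted over the 4 comparisons. The value of 1.76 came from the liver with raised 3'/5' ratios. The measure used the bright Hspd1 probe set, which changed by 0.32 in Cdk4 +/- cells and by 1.13 in livers labelled Abca1 +/-. The second Hspd1 probe set changed by 0.08 and by -0.66 in these comparisons.

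Within ES cells the members differed in how their signals ran across arrays. Over the 12 ES arrays, Hspa8 correlated with Hspe1 (r = 0.93) and with Hsph1 (r = 0.93). After the group means were removed these values were 0.63 and 0.47, so part of the likeness lay between groups, and all values share the scaling of their array. Hspd1 and Hspe1, which share a promoter region, correlated at 0.33, and at 0.31 within groups. Hspa1b and Dnajb1 correlated at 0.38, and at 0.58 within groups. Hspa1b and Hspe1 correlated at 0.60 over the arrays but at -0.88 within groups. That within-group value was the most negative of all member pairs, and its dependence on single arrays was not tested. Hsph1 and Hspe1 correlated at 0.87, and at 0.03 within groups. Hspd1 and Hsp90aa1 correlated at 0.79, and at 0.60 within groups. The remaining member pairs are not listed. The closest gene to each member was sought among tested probe sets with a single gene, those of the member itself left out. Over these 12 arrays it was Uchl1 for Hspa1b (r = 0.94), Hint1 for Hspa8 (r = 0.98), Mrps22 for Hsph1 (r = 0.97) and Mafg for Dnajb1 (r = 0.88). For Hspd1 it was F7 (r = 0.95), for Hspe1 Utp4 (r = 0.98) and for Hsp90aa1 Rps24 (r = 0.94). The second closest were Ankrd10, Ebna1bp2, Orc1, Sin3b, Grin2c, Hnrnpdl and Nudt1, with r between 0.88 and 0.97. For these closest genes r was taken with the group means left in.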

How the data were processed

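Expression was measured on mouse U74Av2 arrays in 16 samples. The authors used MAS5.0 with default settings, per the labels, and the deposited values are linear intensities scaled to a 2% trimmed mean of 1501 to 1502 per array. No detection calls were used. Here each array was rescaled to a trimmed mean of 500, 32 was added and log2 taken, and a probe set was tested if its mean in the fit reached 100; 66 control probe sets were left out. Of 12488 probe sets, 10855 had 1 gene in the platform annotation, 396 several and 1237 none.

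The tests used limma 3.58.1 (lmFit, eBayes with an intensity trend; R 4.3.3): the 4 ES groups in 1 fit, the livers alone, the +/+ groups, and the Abca1 groups of both tissues. The Benjamini-Hochberg adjustment covered every probe set tested in a comparison. All 9 members were named whatever their values. From each list of chaperones the up to 4 passing genes of smallest p were candidates for naming, or up to 2 where none passed, and a gene with several probe sets was represented by the brightest. The 2 genes of highest r per tested member were named. Members and lists were chosen with earlier results of these data known. Labels give no replicate numbers, so arrays were numbered in the order listed and not paired. The results were recomputed on the deposited scale, after quantile normalization, with a pseudocount of 1 or 100, with no filter or a minimum of 200, with no trend, with other sets of arrays, and without each array in turn. The fits were tested on simulated data with known changes. For Cdk4 +/- against E14, 38% of 50 changes of 0.5 on the log2 scale were recovered, and 78% of 50 changes of 1. For livers labelled Abca1 +/- against +/+ livers, 0% of 50 changes of 2 were recovered. Noise was drawn with the spread of each probe set as estimated from these few arrays. The share recovered in liver may therefore understate that of the real fit. Members that did not pass in these comparisons were not shown to be unchanged. The number of arrays limits the precision.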

Additional observations from a re-analysis of the deposited data

How the results depend on the processing

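Hspa1b in Cdk4 +/- cells and Dnajb1 in E14 against ESVJ kept their direction and passed in all 21 alternatives, and Hsp90aa1, Hsph1, Hspa1b and the bright Hspd1 probe set in +/+ liver against +/+ ES cells did so in all 16. Over the member results and their alternatives, 1199 kept direction and side of the threshold, 21 passed where the reported value had not, 33 no longer passed and 41 changed sign. No paired analysis was possible because the labels give no replicate numbers. The liver comparison of the Abca1 label rests on 2 arrays a group and includes an array with raised 3'/5' ratios. Low signals, such as those of Hspb1, cannot be ordered without detection calls. Where no construction shows it, the cause was not tested.

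The number of probe sets that passed for Cdk4 +/- against E14 was 361, and it was 196 without a filter, 227 without the trend, 174 with only the groups compared, 35 with all 16 arrays, and 68 to 521 with an array left out. For Abca1 +/- against ESVJ it was 2, and 1 without a filter, with a minimum of 200 or with only the groups compared, 0 with all 16 arrays, and 1 to 2 with an array left out. For E14 against ESVJ it was 3130, and 2529 to 3262 with an array left out. For the difference of both ES effects it was 46, and 16 without a filter, 19 without the trend, 1 with all 16 arrays, and 5 to 93 with an array left out. For livers labelled Abca1 +/- against +/+ livers it was 1, and 0 with quantile normalization or without the trend, 3 without a filter, 1970 with all 16 arrays, and 9 to 1653 with an array left out. For +/+ liver against +/+ ES cells it was 5915, and 5326 to 5882 with an array left out. For the difference between tissues it was 188, and 55 with quantile normalization, 75 without a filter, 773 with all 16 arrays, and 0 to 2007 with an array left out.

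Sign changes came from quantile normalization and from leaving out arrays. Under quantile normalization, Hsph1 (-0.011) and the second Hspd1 probe set (0.0027) changed sign for Abca1 +/- against ESVJ. Dnajb1 (0.45) and Hspe1 (-0.46) did so for +/+ liver against +/+ ES cells, and, against E14 alone, Dnajb1 (0.14) and Hspe1 (-0.41), and, against ESVJ alone, Hspe1 (-0.52). With an array left out, the second Hspd1 probe set ranged from -0.037 to 0.19 for Cdk4 +/- against E14. For Abca1 +/- against ESVJ, Hspa1b ranged from -0.42 to 0.045, Hspa8 from -0.089 to 0.14, Hsph1 from -0.12 to 0.13, Dnajb1 from -0.14 to 0.16, Hspd1 from -0.096 to 0.039 and from -0.15 to 0.16, Hspe1 from -0.045 to 0.095, and Hsp90aa1 from -0.36 to 0.019. For E14 against ESVJ, Hspa1b ranged from -0.20 to 0.27. For the difference of both ES effects, the second Hspd1 probe set ranged from -0.078 to 0.23. For livers labelled Abca1 +/- against +/+ livers, Hsph1 ranged from -0.96 to 0.80. For +/+ liver against +/+ ES cells, Dnajb1 ranged from -0.14 to 0.12, and Hspa8 against E14 alone from -0.31 to 0.027, and the second Hspd1 probe set against ESVJ alone from -0.094 to 0.28. For the difference between tissues, Hspa1b ranged from -0.77 to 0.57 and Hsph1 from -0.98 to 0.78.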
